A study of Mus musculus with 6 samples.

Results

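The genes described are Muc1, Muc4 and Muc15, 3 membrane mucins of secretory epithelium, out of 12393 genes with a probe set of their own on the array. They were taken by symbol, as probe sets annotated with that symbol alone, and each had 1 such probe set: 1449199_at for Muc1, 1427398_at for Muc4 and 1426941_at for Muc15. The genes were chosen by their KO to Het differences in these data, which were already known for Muc4 and Muc15, so the values of that contrast are a description and no p-value is given for the 3 genes. RNA came from 6 lung metastases of MMTV-Myc mice of the FVB strain, whose transgene expresses the Myc oncogene from a promoter active in mammary epithelium. The 3 KO metastases carry the genotype label Myc E2F2 KO and the 3 Het metastases the label Myc E2F3 Het, so the MMTV-Myc transgene is common to both groups and neither is a group with intact E2F genes. Tissue was collected at endpoint and frozen at once, and 1 Affymetrix array was hybridised per metastasis. The 3 KO titles carry different numbers, whereas all 3 Het titles carry the same one. If that number is a mouse, the Het arrays are 3 metastases of 1 animal, and genotype and animal cannot be told apart in that group. Het replicates 1, 2 and 3 are the metastases titled LM2, LM1 and LM3.

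Membrane mucins are large, heavily O-glycosylated proteins anchored at the apical surface of epithelial cells, where the sugar chains lubricate and shield the cell and the cytoplasmic tail can take part in signalling. Muc1 is present on the luminal surface of the mammary gland and on many other epithelia, including alveolar type 2 cells of the lung. Muc4 can act as a ligand-like partner of the receptor tyrosine kinase Erbb2. Muc1 and Muc15 are both known as components of the membrane that wraps milk fat globules as they leave the secretory cell.

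The promoters of Muc4 and Muc1 are shown because these 2 of the 3 genes were matched in the RefSeq promoter table. The sequences are the 250 bases before the annotated start in RefSeq of build GRCm38.p6, plus strand for both. The Muc4 window is chr16:32735636-32735885 and the Muc1 window is chr3:89228806-89229055. Capitals mark the motif letters found.
Muc4: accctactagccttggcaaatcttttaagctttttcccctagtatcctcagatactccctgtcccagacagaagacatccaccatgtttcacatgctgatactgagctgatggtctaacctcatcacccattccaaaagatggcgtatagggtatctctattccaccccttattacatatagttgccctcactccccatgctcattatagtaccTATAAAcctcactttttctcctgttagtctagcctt
Muc1: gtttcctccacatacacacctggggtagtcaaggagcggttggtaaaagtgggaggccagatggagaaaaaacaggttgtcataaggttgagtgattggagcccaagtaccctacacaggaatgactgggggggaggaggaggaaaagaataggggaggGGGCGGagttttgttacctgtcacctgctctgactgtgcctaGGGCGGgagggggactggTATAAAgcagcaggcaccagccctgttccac

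The letters searched on both strands were TATAAA for the TATA box, GGGCGG for the GC box, CACGTG for the E-box bound by Myc, TTCNNNGAA for STAT factors and AGATAA for GATA factors. Both promoters held TATAAA, at bases -36 to -31 before the Muc4 start and -31 to -26 before the Muc1 start, and 12.4% of the 32851 promoters of the table held it in the same window. The Muc1 promoter also held GGGCGG at -91 to -86 and at -49 to -44, a motif found in 32.7% of promoters, and no match of the Muc4 promoter to it was found. No letters of the E-box, STAT or GATA motifs were found in either window, against 6.02%, 7.02% and 9.99% of all promoters. No motif overlapped another in these windows. These matches describe the letters of the windows and were not tied to any measured binding.

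Muc4 was the member with the clearest separation of the metastases. Its signal, a linear intensity in the authors' scaling, was 56.9, 78.0 and 57.3 in KO replicates 1, 2 and 3 and 201.0, 288.9 and 344.7 in Het replicates 1, 2 and 3. Every KO array lay below every Het array, and the lowest Het signal was 2.58 times the highest KO signal. The group means were 64.1 ± 12.0 in KO and 278.2 ± 72.4 in Het (SD, n = 3 arrays each). On the log2(signal + 16) scale, used for all differences here, KO minus Het was -1.86, which is 3.62-fold higher in Het on that scale. In order of level, KO replicates 1 and 3 were 0.01 apart, less than the pooled SD within groups of 0.30 (log2), and Het replicates 2 and 3 were also closer to each other than that SD, at 0.24.

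The KO values of Muc4 were dim. Probe sets were kept for the fit across the array only above a mean level equal to a signal of 78.4, and all 3 KO arrays were below it, so Muc4 passed through its Het arrays. A gene that passes in this way has to differ between the groups. Whether the KO signals were above background is not known, because detection calls were not used here. With pseudocounts of 1 and 64 in place of 16, the difference was -2.08 and -1.40.

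Muc15 was low in a single metastasis, KO replicate 1. Its signal was 1124.1, 3594.6 and 5443.3 in KO replicates 1, 2 and 3 and 4882.6, 6011.8 and 6815.6 in Het replicates 1, 2 and 3. KO replicate 1 stood far below the other 5 arrays, and KO replicate 3 lay above Het replicate 1, so the groups overlapped. The means were 3387 ± 2167 in KO and 5903 ± 971 in Het (SD, n = 3 arrays each), and KO minus Het was -1.06 on the log2 scale. The step from KO replicate 1 to KO replicate 2 was 1.66 (log2), against a pooled SD of 0.85, and each of the other 4 steps in the order of arrays was smaller than that SD. Leaving out KO replicate 1 gave -0.40. Leaving out KO replicate 3 gave -1.53, and the groups then no longer overlapped. They also did not overlap without Het replicate 1, at -1.19.

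Muc1 had nearly equal group means and a wide spread within both groups. Its signal was 1000.3, 366.2 and 363.4 in KO replicates 1, 2 and 3 and 639.3, 333.3 and 678.9 in Het replicates 1, 2 and 3. KO replicate 1 was the highest array and Het replicate 2 the lowest, so each group held both high and low metastases. The means were 576.6 ± 366.9 in KO and 550.5 ± 189.1 in Het (SD, n = 3 arrays each), and the log2 difference was -0.04. The arrays formed a low set of 3 and a high set of 3, separated by a step of 0.78 (log2) between KO replicate 2 and Het replicate 1, against a pooled SD of 0.70. The sign was not stable: leaving out KO replicate 1 gave -0.51, and leaving out either of the other KO replicates gave 0.20.

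**Figure D1:**
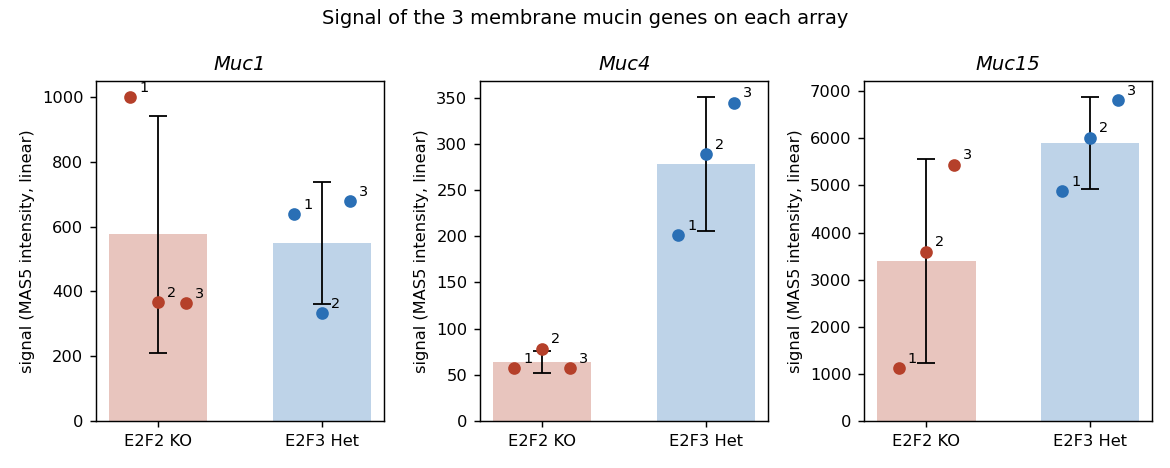
Signal (linear MAS5 intensity) of Muc1, Muc4 and Muc15 in 3 KO and 3 Het metastases; bars are group means, error bars the SD over 3 arrays, and points single arrays numbered by replicate. Muc4 spans 56.9 to 78.0 in the KO and 201.0 to 344.7 in the Het metastases, Muc15 is lowest in KO replicate 1 at 1124.1, and Muc1 is highest in that same array at 1000.3.

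Across the array, the KO and Het arrays did not overlap for 16.7% of the 13576 probe sets kept, with 8.91% wholly lower and 7.82% wholly higher in KO. Of the 3 mucin genes, 1, Muc4, lay wholly lower in KO. A log2 difference of -1 or below was found in 0.545% of probe sets, and in 2 of the 3 mucins, Muc4 and Muc15. Both conditions together held for 0.287% of probe sets, among them Muc4. Because the genes were chosen with this contrast known, nothing is read from these counts. Fitted with limma, the KO samples against the mean of the Het arrays gave 0% of the 13576 probe sets past an adjusted p of 0.05, with 0.9999 as the lowest; before adjustment, 301 were past 0.05. With each array as a sample, limma again called 0 (lowest adjusted p = 0.274), with 1394 past 0.05 before adjustment.

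The spread within each group differed among the 3 genes. In KO metastases, which carry different title numbers, the highest signal was 4.84 times the lowest for Muc15, 2.75 times for Muc1 and 1.37 times for Muc4. In Het metastases, which share a number, the same ratios were 1.40 for Muc15, 2.04 for Muc1 and 1.71 for Muc4. On the log2 scale, the range of Muc15 over the KO arrays exceeded that of 98.5% of the probe sets kept, and the range of Muc1 exceeded that of 94.7%. Over the Het arrays the Muc1 range exceeded that of 93.6%, and the Muc15 range that of 67.1%. Muc1 thus varied more than most probe sets in both groups, and Muc15 mainly in KO. The Muc4 range exceeded that of 41.0% of probe sets over KO and 85.6% over Het arrays.

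The 3 mucins did not share a pattern over the 6 metastases. Likeness was measured as the root mean square (RMS) difference of log2 values after centring each probe set on its mean over the 6 arrays, so that 0 means the same pattern, and 7956 other genes were compared for each member. Muc15 was 0.77 from Muc4, and Muc1 was 1.13 from Muc4 and 1.30 from Muc15. Ranked from each member, 383 genes were closer to Muc4 than Muc15 was, and 6752 were closer to Muc4 than Muc1 was. All these patterns are read from the same 6 arrays, 3 of which may share a mouse.

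The genes most like Muc15 were Abhd5, a co-activator of triglyceride breakdown on lipid droplets, at an RMS difference of 0.23, the carbonic anhydrase gene Car13 at 0.24, Sec16b, which acts at endoplasmic reticulum exit sites, at 0.26, the growth factor gene Pdgfc at 0.28 and Vav3 at 0.30. Abhd5 had a signal of 742.2 in KO replicate 1 against 2357.2 to 4518.2 on the other 5 arrays. As for Muc15, KO replicate 1 was the lowest array for all 5 of these genes. Elf5, a transcription factor of the secretory mammary lineage, was at 0.37, and the whey acidic protein gene Wap at 0.41. Elf5 and Wap were picked after their values were seen and had 13 and 20 genes closer to Muc15.

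The genes most like Muc4 were the adhesion receptor gene Adgrg3 at an RMS difference of 0.33, 2610528A11Rik at 0.38, the membrane-associated protein gene Basp1 at 0.42, the growth factor gene Tgfb3 at 0.44 and Gata3, a luminal transcription factor, at 0.46. Gata3 had a signal of 343.8, 417.5 and 407.5 in KO and 678.9, 1044.8 and 789.4 in Het replicates 1 to 3. Its KO arrays all lay below its Het arrays, and the same held for Muc4 and the other 4 genes. Muc4 spans the groups by a wide step, so genes with a large step between the groups are near it by construction of the measure. From its lowest to its highest array, Muc4 spanned 2.31 on the log2 scale.

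The genes most like Muc1 were the phospholipase gene Pld1 at an RMS difference of 0.21, the ciliary transport gene Ift81 at 0.24, the complement factor I gene Cfi at 0.24, the chloride channel family gene Clic3 at 0.25 and Dop1b at 0.25. Pld1 had a signal of 222.8 in KO replicate 1, 146.0 in Het replicate 1 and 89.5 to 121.8 on the other 4 arrays. KO replicate 1 was the highest array for all 5 of these genes. The alveolar type 2 gene Slc34a2 was at 0.83 from Muc1, with 7566 of 7956 genes closer, and at 1.98 from Muc15. KO replicate 1 was the highest array for Slc34a2 too, at 7294.4 against 582.5 to 2373.4 elsewhere.

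**Figure D2:**
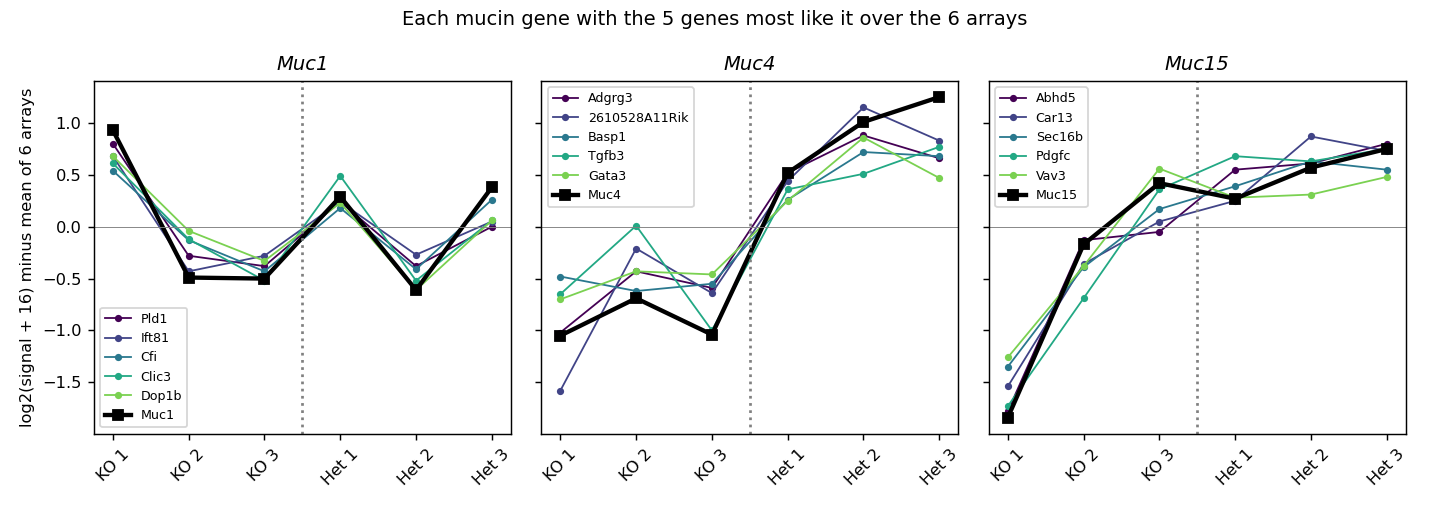
Log2(signal + 16) of each mucin gene (black squares) and of the 5 genes most like it (coloured), minus each gene's mean over the 6 arrays; lines join the arrays of a gene and carry no order, and the dotted line parts KO from Het. Muc1 peaks at 0.93 in KO replicate 1, Muc15 drops to -1.84 in the same array, and Muc4 spans -1.05 to -0.69 in the KO and 0.52 to 1.25 in the Het metastases.

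Marker lists show what else was in the tissue on each array. Keratin and adhesion genes of epithelium, such as Krt8, Krt18 and Epcam, had a summed signal of 42093 to 50518 in KO and 41959 to 48557 in Het, and milk protein genes were bright throughout, with a sum of 53665 to 99155 in KO and 81432 to 94611 in Het. Genes of alveolar type 2 cells were also present on every array, with 8 of the 9 listed genes measured and all 8 kept. Their summed signal was 59474, 31090 and 10183 in KO replicates 1, 2 and 3 and 27742, 16857 and 20174 in Het replicates 1, 2 and 3. KO replicate 1 was the highest array for 7 of these 8 genes. In whole tissue, fewer cells of a type and less RNA per cell cannot be told apart.

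The array with the highest Muc1 and the lowest Muc15 was therefore also the one with the highest lung signal. Relative to the mean of the 6 arrays, on the log2 scale, KO replicate 1 was at 0.93 for Muc1, -1.84 for Muc15, 1.61 for the alveolar type 2 list, 0.88 for alveolar type 1, 1.12 for the airway list and -1.05 for milk proteins. In KO replicate 3, which had the lowest alveolar type 2 value at -1.14, Muc1 was at -0.50 and Muc15 at 0.42. The order of the remaining arrays differed: KO replicate 2 was at 0.35 for alveolar type 2 genes and -0.49 for Muc1, while Het replicate 3 was at -0.35 and 0.38. The part of lung tissue in the Muc1 and Muc15 values was not tested. For Muc4, without KO replicate 1 the difference was -1.79, against -1.86 over all arrays. Because Muc4 was chosen by this contrast, nothing is read from that value, and the part of lung tissue in it was not tested. Airway markers, which include secretory cells known to carry Muc4, had a summed signal of 6477 to 26333 in KO and 18074 to 22235 in Het, and 4 of the 12 measured were kept; Spdef, Agr2, Tff2, Clca1, Bpifa1, Reg3g, Foxj1 and Tekt1 were dim. The part of airway cells in the Muc4 values was not tested.

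Fibroblast markers split the groups in the direction opposite to Muc4. Their summed signal was 7421, 6807 and 5073 in KO replicates 1, 2 and 3 and 4198, 4329 and 4285 in Het replicates 1, 2 and 3, so every KO array lay above every Het array. The collagen genes Col1a1, Col1a2 and Col3a1 and the proteoglycan gene Dcn, 4 of the 5 genes listed, lay wholly higher in KO. That is 80% without overlap, against 16.4% of all genes. The 4 genes were at log2 differences of 0.57 to 0.95, while Pdgfra was at -0.30. The other probe sets of Col1a1, Col1a2 and Col3a1 were at 0.23, 0.68 and 0.48. No gene of the list passed the limma test. The part of fibroblasts in the Muc4 values was not tested.

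**Figure D3:**
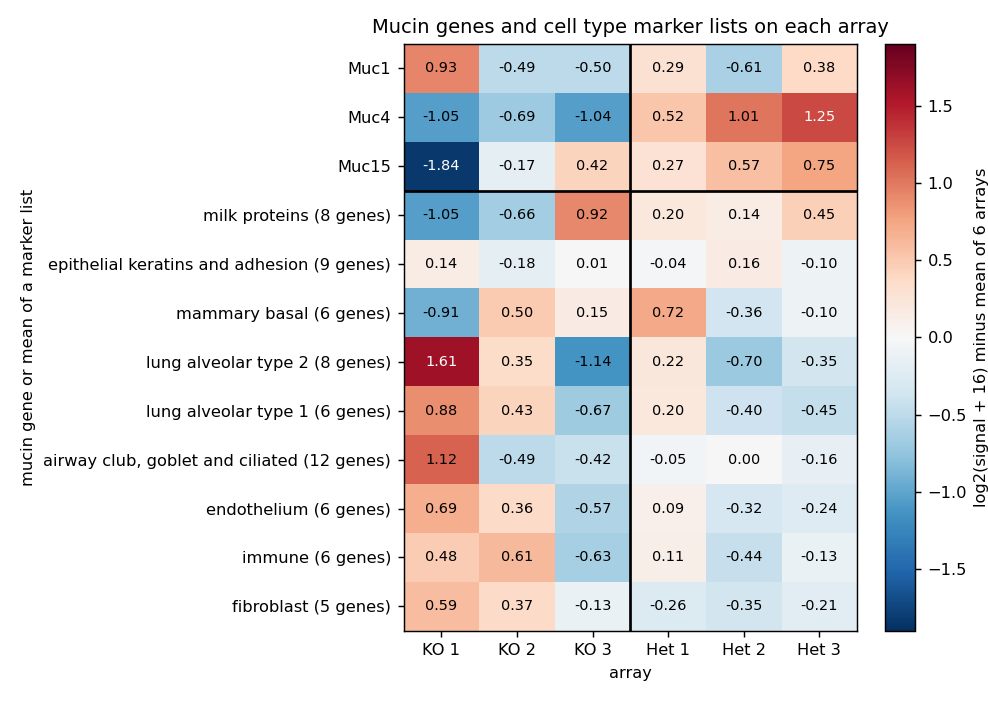
Centred log2(signal + 16) of the 3 mucin genes (top) and the mean over each marker list (below) on the 6 arrays; red is above and blue below the mean of the 6 arrays, and the lines part the genes from the lists and KO from Het. KO replicate 1 combines 0.93 for Muc1 and -1.84 for Muc15 with 1.61 for alveolar type 2 genes and -1.05 for milk proteins.

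A measure of RNA quality split the groups in the same way as Muc4. The ratio of the actin control probe sets at the 3' end to those at the 5' end was 1.64, 1.49 and 1.48 in KO replicates 1, 2 and 3 and 2.37, 1.67 and 1.73 in Het replicates 1, 2 and 3, so every Het array lay above every KO array and Het replicate 1 stood apart. The same ratio for Gapdh was 0.75 to 0.85 in KO and 0.81 to 0.93 in Het, with overlap. Het replicate 1 was the lowest Het array for Muc4 and Muc15, and the part of RNA quality in these values was not tested. Without it, the log2 difference was -2.06 for Muc4, -1.19 for Muc15 and 0.10 for Muc1. With KO replicate 1 left out as well, a choice made after seeing the data, it was -2.00, -0.53 and -0.37.

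The other mucin genes went both ways. In this list and the 6 others described next, limma called 0 genes after adjustment, and before adjustment it put Gata3 and Foxa1 among the transcription factors, St6galnac2 among the O-glycosylation enzymes and Cd36 among the milk fat globule genes past 0.05. Of 20 mucin and mucin-like genes listed, 11 were measured and 7 kept, and 1 of the 7 had arrays that did not overlap between the groups, a share of 14.3% against 16.4% of all 7957 genes at 1 probe set per gene (10.5% wholly lower and 5.83% wholly higher in KO). The median log2 difference of the 7 was 0.42, against -0.04 over all genes, and 0 passed the limma test in either direction. The secreted airway mucins Muc5ac and Muc5b and the gut mucins Muc3 and Muc13 were left out as dim. Muc5b had a signal of 118.3 in KO replicate 1 and 17.2 to 89.4 on the other arrays. Glycam1, a mucin-like protein of milk, had 16331 in KO replicate 3 and 368.4 to 1274.5 elsewhere, so its mean difference of 0.91 rests on that array. The kept members above 0 were Glycam1, the endothelial sialomucins Cd34, Emcn and Podxl, and Cd164; the endothelium list had a summed signal of 780 to 1957 in KO and 941 to 1319 in Het.

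Muc20, another membrane mucin and a neighbour of Muc4, had a signal of 192.8, 206.2 and 180.1 in KO and 261.7, 289.0 and 287.7 in Het replicates 1 to 3. All KO arrays lay below all Het arrays, and KO minus Het was -0.50 (log2; SE 0.26; limma adjusted p = 0.9999). In the GRCm38.p6 gene table, Muc20 overlaps Muc4, and whether the 2 probe sets share transcript sequence is not known here. The nearest coding gene before Muc4 is Tnk2, a non-receptor tyrosine kinase. Its 2 probe sets were at -0.28 and -0.39, both wholly lower in KO, as were 8.91% of all probe sets kept. The nearest coding gene after Muc4, Smbd1, had no probe set of its own name. Because Muc4 was chosen by this contrast, nothing is read from its sharing a direction with Muc20 and Tnk2. Beside Muc1, Trim46 was at -0.20 with overlapping groups, and Thbs3 was dim. Muc15 lies within the bounds of Ano3 in the same table, and Ano3 had no probe set of its own name.

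Enzymes that build mucin-type O-glycans went both ways. Of 27 listed, 22 were measured and 14 kept, and 0 passed the limma test in either direction. The groups did not overlap for 4 of 14 (28.6%), against 16.4% of all genes, and the median difference was 0.12. Of these, 3 lay higher in KO: the sialyltransferase genes St6galnac2 at 1.38 (SE 0.51), St6galnac4 at 0.86 (SE 0.39) and St3gal4 at 0.40 (SE 0.33), each with limma adjusted p = 0.9999. St6galnac2 had a signal of 596.7, 377.3 and 235.2 in KO and 131.9, 173.7 and 105.5 in Het, but its other probe set was at -0.58. The St3gal4 groups were barely apart, with 127.4 in the lowest KO and 126.6 in the highest Het array. Galnt7, an N-acetylgalactosamine transferase, was lower in KO at -0.32, with its other probe sets at 0.53 and -0.17. For St6galnac2 and Galnt7, then, the direction depends on the probe set.

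Among partners and signalling proteins of membrane mucins, 13 of 16 were kept, and 0 passed the limma test in either direction. Erbb3, which pairs with Erbb2 as a receptor, had a signal of 1679, 1274.5 and 1101 in KO and 1862.4, 1780.1 and 1799.2 in Het, and was the 1 member without overlap (7.69% against 16.4% of all genes). KO minus Het was -0.44 (log2; SE 0.30; limma adjusted p = 0.9999). Erbb2, the partner of Muc4, was nearly level, with 248.4 ± 22.7 in KO and 240.6 ± 26.3 in Het (SD, n = 3 arrays each) and a difference of 0.04 (SE 0.26). Egfr was at 0.05. The median of the list was -0.08. Of the 4 sheddases that cut membrane mucins and other surface proteins, Adam10 lay lower in KO at -0.30 and Mmp14 higher at 0.44. The other 2 probe sets of Adam10 were at 0.60 and 0.43, so its direction too depends on the probe set, whereas the other probe set of Mmp14 was at 0.63. The list median was -0.07, 0 passed the test, and 50% of the 4 genes had no overlap, against 16.4% of all genes.

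Transcription factors of secretory and luminal epithelium had a median of -0.24 over the 15 kept of 19 listed, with 12 of 15 below 0 and 0 past the limma test in either direction. Over all 7957 genes, 4505 lay below 0. No overlap was seen for 3 of the 15 (20%), against 16.4% of all genes. Gata3, described above as like Muc4, was at -1.06 (SE 0.25; limma adjusted p = 0.9999). Tfap2a was at -0.43, with its other probe sets at 0.30 and -0.49. The pioneer factor Foxa1 went the other way, with 246.7, 140.7 and 207.7 in KO and 96.7, 61.5 and 95.7 in Het, a difference of 1.08 (SE 0.38; limma adjusted p = 0.9999). Elf5, like Muc15, was lowest in KO replicate 1, with 3154.5 against 5390.1 to 8890.1 on the other arrays.

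Genes of proteins that share the milk fat globule membrane with Muc1 and Muc15 did not move as a set between KO and Het. Of the 8 listed, all 8 were kept, 4 lay above 0 and 4 below, the median was 0.04 and 0 passed the limma test. Cd36, a fatty acid receptor, was the 1 gene without overlap (12.5%, against 16.4% of all genes), with 1863.2, 1243.1 and 2616.1 in KO and 898.9, 405.8 and 586.3 in Het, a difference of 1.58 (SE 0.42; limma adjusted p = 0.9999), opposite to Muc15. Its other 2 probe sets were at 1.38 and 1.15. Cd36 is also expressed by capillary endothelium and macrophages. The endothelium list is given above. The immune list had a summed signal of 1686 to 5325 in KO and 1871 to 2469 in Het. In KO replicate 3, where Cd36 was highest, the endothelium sum was 780 and the immune sum 1686, each the lowest of all arrays. The part of these cells in the Cd36 values was not tested. Xdh, the enzyme of the same membrane, was at -0.70 (SE 0.45). Btn1a1, its binding partner, was at -0.29 (SE 1.28), with 2801.6 in KO replicate 3 against 249.4 to 1078.5 elsewhere. Fabp3, at 1.86, and Cidea, at 1.17, were also highest in KO replicate 3. Fabp3 had 6974.1 there and 118.5 to 188.5 elsewhere, and Cidea had 613.6 there and 45.8 to 224.4 elsewhere. Cd36, Plin2 and Mfge8 were highest in that array as well, whereas Xdh and Cd24a were not. Milk protein genes had a median of -0.81, with 7 of 7 kept genes below 0 (4505 of 7957 over all genes) and 0 without overlap, against 16.4% of all genes, and 0 passed the limma test. The median was -0.31 without KO replicate 2. Wap had 944.6, 3643.7 and 9295.2 in KO and 9346.5, 7217.3 and 9653.9 in Het. Like Muc15, Wap was lowest in KO replicate 1. Of the 8 milk protein genes measured, 4 were lowest in that array and 4 in KO replicate 2.

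**Figure D4:**
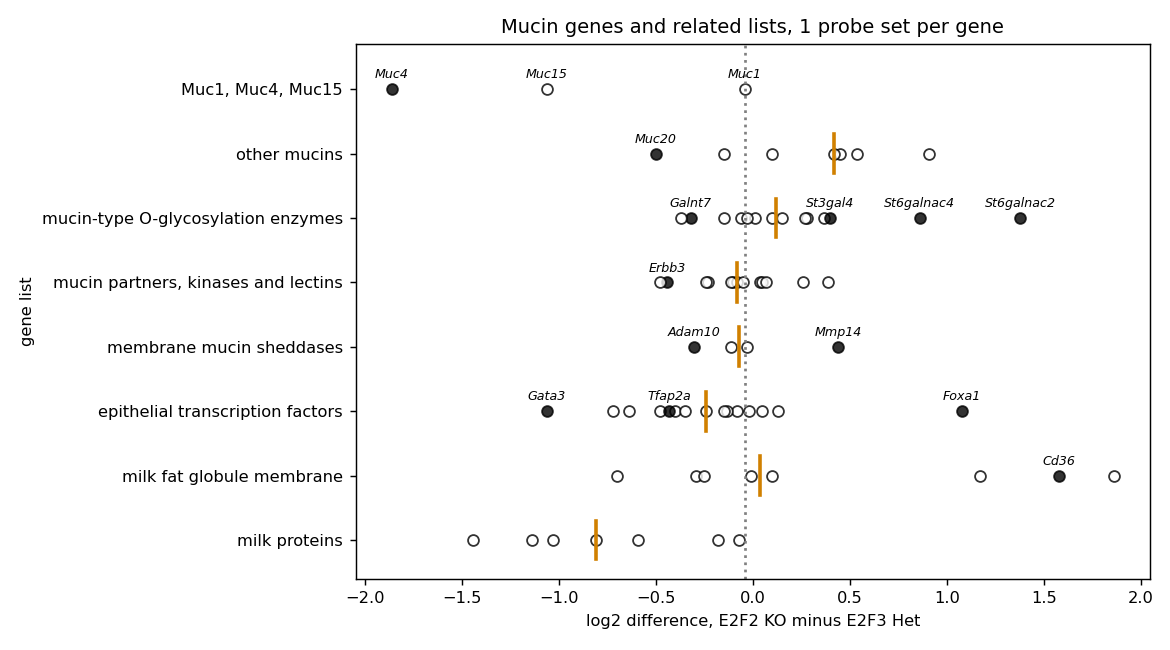
Log2 difference of KO minus Het for the 3 mucin genes and for the kept genes of 7 related lists, at 1 probe set per gene; filled points are genes whose KO and Het arrays do not overlap, orange bars are list medians and the dotted line is the median of all genes at -0.04. Muc4, at -1.86, was chosen by this contrast, so nothing is read from its place below every gene of these lists. The medians run from -0.81 for milk proteins to 0.42 for other mucins.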

How the data were processed

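The intensities were deposited by the authors as linear signals for 22690 probe sets; per the submitters' processing notes, the tools were MAS5 and Affymetrix Expression Console, whose versions are not given in the sources used here. Every array had a trimmed mean of 500.2, and medians ran from 137.6 to 164.8, so the deposited values were scaled to a common level. The number of arrays limits the precision.

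Values were taken as log2(signal + 16), which understates the change of dim genes. Left out were 64 controls and, by mean level, the dimmest 40% of probe sets, which kept 13576 probe sets and 7957 genes at their brightest probe set. The 3 Het arrays were averaged, and limma 3.58.1 in R 4.3.3 (lmFit, eBayes with trend) compared 3 KO samples with that mean, with Benjamini-Hochberg adjustment at 0.05. The lone Het sample is assumed to vary like the KO samples. The labels do not say that samples came from separate animals. The p-values may therefore measure spread among metastases, technical spread included, and not among animals. The procedure was tested on simulated data.

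The members and the 17 lists (168 genes, 147 measured) were chosen with earlier results of these data known. The genes named are all probe sets of the 3 mucins, the 5 genes most like each member that ranged over at least 1 (log2), gene neighbours, and up to 4 list members whose groups do not overlap. Elf5, Wap, Slc34a2, Erbb2, Egfr, Xdh, Btn1a1, Fabp3, Cidea, Plin2, Mfge8, Cd24a, Glycam1, Muc5b and Pdgfra fall outside this rule and were named after their values were seen. Also outside it are Cd34, Emcn, Podxl and Cd164, the markers Krt8, Krt18 and Epcam, and the other list genes named as dim. Gene neighbours and promoters came from RefSeq for GRCm38.p6. E2F2 levels and detection calls were not used here. Alternatives covered pseudocount, filter, normalization, unit of replication and single arrays.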

Additional observations from a re-analysis of the deposited data

How the results depend on the processing

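Of the differences of the 3 mucins, Muc4 ran from -2.08 to -1.40 over 10 alternatives, the latter with a pseudocount of 64; its groups cannot come to overlap when an array is left out or the pseudocount is changed, and the gene was chosen by this contrast, so neither speaks for stability. Muc15 ran from -1.53 to -0.40, and Muc1 ran from -0.51 to 0.20. The number of probe sets past the limma threshold was 0 in all 15 alternatives. The share of probe sets without overlap ran from 23.1% to 36.5% with 1 array left out and was 39.1% without KO replicate 1 and Het replicate 1, since fewer arrays overlap less often by construction. Leaving out 1 array moved the list medians to between 0.20 and 0.37 for other mucins, -0.33 and -0.16 for epithelial transcription factors, and -0.95 and -0.31 for milk proteins. With no filter on dim probe sets, other mucins were at 0.10 and epithelial transcription factors at -0.14; with 60% left out, O-glycosylation enzymes were at -0.01 and epithelial transcription factors at -0.35. With the median of all probe sets of a gene, sheddases turned to 0.29 and epithelial transcription factors were at -0.09. Beyond the share set by fewer arrays, the cause of these shifts was not tested. No paired analysis was possible because the labels give the groups no shared replicate numbers. The Muc4 signals in KO limit its fold change, since they all lie below the dimmest mean level kept.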
